A study of Mus musculus with 30 samples.

Results

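Embryoid bodies (EBs), the free-floating aggregates that mouse embryonic stem cells form when they differentiate, were compared between day 2 and day 4 of culture, the interval in which an epiblast-like population gives way to mesendoderm. The comparison rests on 4 of the 30 samples of the series, 2 RNA libraries of day 2 and 2 of day 4, chosen by the cell line and day in their labels. It covers all genes of the deposited count table. All 4 libraries came from E14Tg2a.IV cells (129/Ola background, labelled wild type), which had been kept on gelatin in medium with serum and LIF before aggregation. No treatment is named for these RNA libraries. The 2 libraries each of day 1 and day 3 entered the same model and served for the spread and the time course. The 2 undifferentiated day 0 libraries, which agreed less with each other (Spearman's rho across genes 0.9742) than the libraries of any later day, were left out. In a separate table, day 4 EBs of 2 lines on a C57BL/6J background were used only to look the genes up. They were Trp53+/+ cells (labelled wild type) and Trp53-/- cells that also carry shRNAs against p63 and p73, both kept in N2B27 medium with LIF and the inhibitors PD0325901 and CHIR99021, 2 libraries each.

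Between implantation and gastrulation the epiblast leaves naive pluripotency and becomes competent for germ layer formation. Cells at the primitive streak then start to express T-box and homeobox transcription factors under Wnt, Nodal, BMP and FGF signals, lose epithelial adhesion and move away as mesoderm or definitive endoderm. The name mesendoderm is used for the early streak population in which genes of both germ layers are active. EBs pass through a similar order of gene expression, although the cell types are mixed and not positioned as in an embryo.

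The promoters of 6 streak genes are shown first, because their transcripts are described below and because streak genes are textbook targets of TCF/LEF factors, the nuclear effectors of Wnt signalling. T, Mesp1, Eomes and Gsc were among the genes that the plan named in any case. Sp5 and Msgn1 were not, while Foxa2 and Wnt3 were and are not printed. Each sequence is the 250 bases before the annotated start, 5′ to 3′ on the gene's strand, from RefSeq (GRCm38.p6), a newer build than the mm9 named for the deposited table. Capitals mark the letters CTTTGAT or CTTTGAA on either strand, the core of the TCF/LEF motif. They lie at chr17:8434173-8434422 (T, plus strand), chr7:79793591-79793840 (Mesp1, minus strand), chr2:70474673-70474922 (Sp5, plus strand), chr12:11208949-11209198 (Msgn1, minus strand), chr9:118477939-118478188 (Eomes, plus strand) and chr12:104473237-104473486 (Gsc, minus strand).
T: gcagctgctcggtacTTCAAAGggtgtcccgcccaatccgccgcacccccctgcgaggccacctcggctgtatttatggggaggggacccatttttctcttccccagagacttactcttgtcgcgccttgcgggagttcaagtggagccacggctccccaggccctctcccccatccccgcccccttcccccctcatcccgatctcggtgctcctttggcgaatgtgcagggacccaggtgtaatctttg
Mesp1: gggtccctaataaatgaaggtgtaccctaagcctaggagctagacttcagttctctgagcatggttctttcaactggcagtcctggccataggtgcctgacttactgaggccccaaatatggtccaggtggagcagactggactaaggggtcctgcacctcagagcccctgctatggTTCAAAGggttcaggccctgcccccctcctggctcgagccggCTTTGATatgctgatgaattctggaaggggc
Sp5: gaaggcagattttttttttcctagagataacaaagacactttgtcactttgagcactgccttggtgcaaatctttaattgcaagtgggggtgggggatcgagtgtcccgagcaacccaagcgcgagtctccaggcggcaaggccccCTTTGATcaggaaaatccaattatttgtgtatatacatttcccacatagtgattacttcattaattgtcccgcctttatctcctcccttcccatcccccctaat
Msgn1: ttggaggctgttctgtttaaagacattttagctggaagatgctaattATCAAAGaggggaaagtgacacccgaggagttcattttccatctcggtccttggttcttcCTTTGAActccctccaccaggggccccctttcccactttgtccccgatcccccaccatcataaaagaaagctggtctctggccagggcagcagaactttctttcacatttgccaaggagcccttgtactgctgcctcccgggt
Eomes: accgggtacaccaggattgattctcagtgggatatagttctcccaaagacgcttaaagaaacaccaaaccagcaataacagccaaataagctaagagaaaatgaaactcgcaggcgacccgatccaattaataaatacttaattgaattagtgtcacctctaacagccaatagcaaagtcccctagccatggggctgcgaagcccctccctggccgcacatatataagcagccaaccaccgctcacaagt
Gsc: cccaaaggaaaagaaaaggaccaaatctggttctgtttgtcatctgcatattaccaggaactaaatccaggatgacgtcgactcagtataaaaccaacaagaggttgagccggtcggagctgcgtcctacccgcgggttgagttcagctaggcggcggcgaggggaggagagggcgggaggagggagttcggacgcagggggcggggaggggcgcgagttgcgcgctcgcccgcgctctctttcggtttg

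In T the letters stood on the opposite strand, 235 to 229 bases before the start. Mesp1 had them on the opposite strand at 73 to 67 bases and on its own strand at 31 to 25 bases, Sp5 at 104 to 98 bases, and Msgn1 at 203 to 197 bases (opposite strand) and 143 to 137 bases. Eomes and Gsc had no match in this window. Of the 9 other genes whose promoters were searched, Pcdh7 had a match and Wnt3, Foxa2, Evx1, Lhx1, Axin2, Cer1, Cyp26a1 and Nodal had none, so 5 of 15 promoters held the letters. For Foxa2 only 1 of 3 promoter entries was searched. Mixl1, Aplnr, Sox17, Hand1 and Lefty1 had no promoter entry. The 15 genes were chosen and not drawn at random, so their share cannot be compared with the shares that follow. Among all 32851 promoters of the same length 7.48% held a match, and among the promoters of tested genes 5.49%. The share was 5.38% for promoters of genes called higher by more than 2-fold at day 4 and 5.32% for those of genes called lower by more than 2-fold. Among the promoters of genes called higher by more than 8-fold it was 10.3% (23 of 224 promoters, which belong to 188 genes). The T-box letters AGGTGTGA were found in 1.04% of promoters of the genes higher by more than 2-fold and in 0.768% of those of all tested genes, and the E-box letters CACCTG, bound by Snail-type repressors, in 14.9% and 16.7%. Promoters of genes called lower by more than 2-fold held CACCTG in 23.5%. These shares are descriptions of letters on both strands, some of which may overlap, and no test was run on them.

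The libraries held between 20104644 and 35214736 reads assigned to genes at days 2 to 4, and the replicate libraries of a day ranked genes alike (Spearman's rho across genes 0.9902 at day 2, 0.9868 at day 3 and 0.9890 at day 4). The labels do not say whether 2 libraries of a day came from separate cultures, so p-values measure only the spread between these samples, which may be technical. Levels below are deposited signals, which are read counts divided by one factor per library, and changes are log2 fold changes of signal + 1 from limma with their standard errors, which understates the change of genes near 0. The sources used here give no transcript lengths, so levels are compared between libraries and not between genes.

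The marker genes of the label fit the 2 days only in part on the epiblast side. All 5 primed epiblast markers were read at day 2. Pou3f1 fell from 11463 and 7852 at day 2 to 1334 and 2308 at day 4. Dnmt3b fell from 101150 and 88494 at day 2 to 30678 and 27818 at day 4. Sall2 fell from 6348 and 5932 at day 2 to 2006 and 3496 at day 4. Otx2 fell from 5574 and 5213 at day 2 to 3563 and 3138 at day 4. Fgf5 read 4294 and 4395 at day 2, 4749 and 5568 at day 3 and 3457 and 4528 at day 4 and did not pass the test (log2 change -0.13 ± 0.15, limma adjusted p = 0.54). Otx2 lost its call when replicate 1 of day 2 or replicate 2 of day 4 was left out. Of the 5 streak markers T, Eomes, Mixl1, Mesp1 and Gsc all rose, as did the endoderm markers Sox17, Foxa2 and Cer1 and the mesoderm markers Kdr, Pdgfra, Msgn1 and Tbx6. The naive markers Zfp42 and Esrrb were still read at day 2 and fell by day 4, while Klf4 was not called.

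The change across the transcriptome was broad. Of 15724 genes tested, 2335 were higher at day 4 (14.8%) and 2283 were lower (14.5%) at an adjusted p under 0.05, and 1437 (9.14%) and 1376 (8.75%) of them by more than 2-fold. Rises reached further than falls: 295 genes rose and 115 fell by more than 8-fold, and 70 rose and 1 fell by more than 32-fold. That gene was Bhlhe23, a bHLH factor gene with signals of 58.7 and 46.2 at day 2 and 1 read in the day 4 libraries. Across all tested genes, both day 4 libraries lay above both day 2 libraries for 37.5% and below them for 37.9%, so the absence of overlap in a pair of libraries is common here and is given below only as a description. In these bulk libraries fewer cells of a type and less RNA per cell cannot be told apart. The counts depended on single libraries: without replicate 1 of day 2 they were 1048 higher and 886 lower, without replicate 2 of day 2 1564 and 1330, without replicate 1 of day 4 1279 and 1218, and without replicate 2 of day 4 1055 and 1133, while all 2335 and 2283 calls kept their sign in each of these fits.

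**Figure D1:**
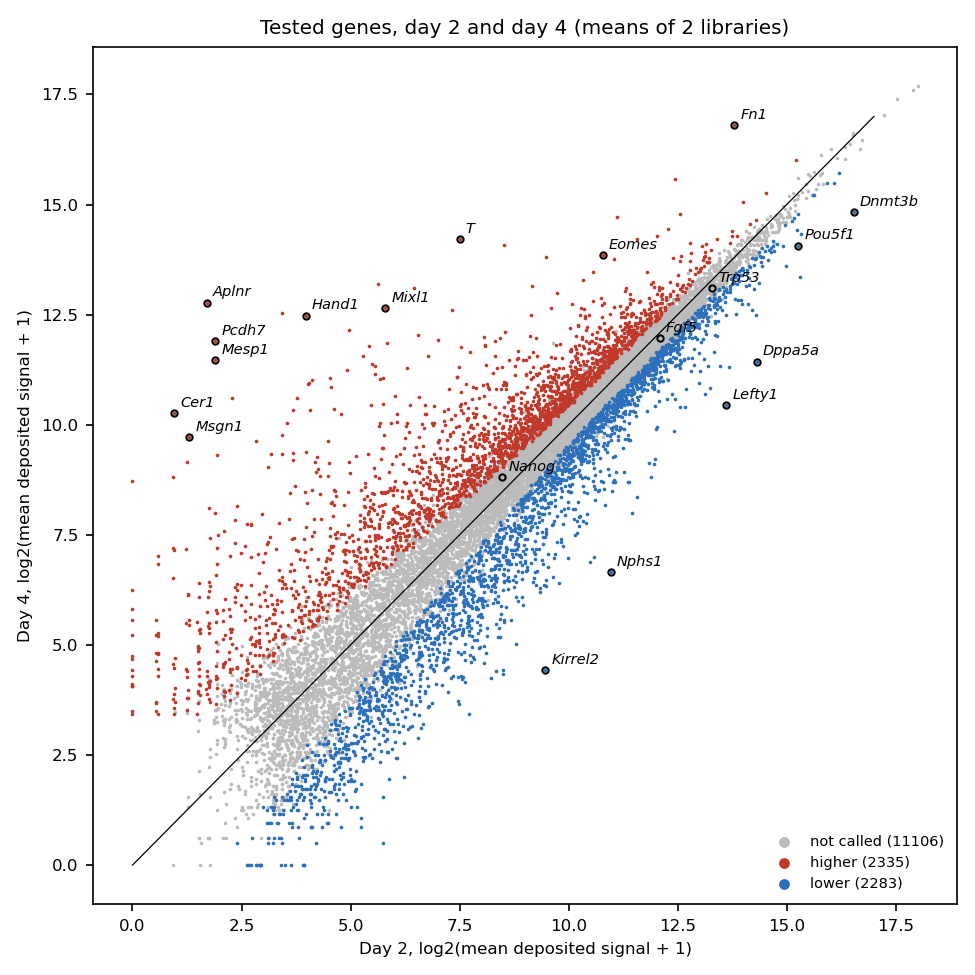
Mean deposited signal + 1 of the 2 day 2 libraries (x axis) and the 2 day 4 libraries (y axis), both as log2, for the 15724 tested genes, with 2335 called higher in red, 2283 called lower in blue and the others in grey. The line marks equal levels. Aplnr, Pcdh7, Mesp1, Cer1 and Msgn1 sit near 0 at day 2 and far above the line, while Kirrel2 and Nphs1 lie far below it.

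The largest rises were in genes nearly silent at day 2. Aplnr, the receptor of the peptides apelin and Elabela that steers mesendoderm movement, read 0.979 and 3.56 at day 2, 126 and 642 at day 3 and 7187 and 6828 at day 4, a log2 change of 11.19 ± 0.71 (limma adjusted p = 1.5e-05). Pcdh7, a protocadherin adhesion molecule, read 0.979 and 4.44 at day 2, 234 and 433 at day 3 and 3712 and 3919 at day 4. Mesp1, the bHLH factor of the first cardiac and lateral mesoderm, read 0.979 and 4.44 at day 2, 45.8 and 232 at day 3 and 3223 and 2456 at day 4. In all 3 genes the day 2 and day 4 libraries were far apart and day 3 lay between, with its replicate 2 above its replicate 1. Lhx1, a LIM homeobox factor of the streak and the head organiser, read 8.81 and 10.7 at day 2, 313 and 1216 at day 3 and 6558 and 5421 at day 4. Prdm6, a SET-domain transcription regulator, moved from 5.87 and 1.78 at day 2 to 1193 and 1941 at day 4. Hand1, a bHLH factor of lateral and extraembryonic mesoderm, rose from 19.6 and 9.78 at day 2 to 2145 and 9272 at day 4, with a wide gap between the 2 day 4 libraries of Hand1. Cyp26a1, which degrades retinoic acid, went from 50.9 and 45.3 at day 2 to 10475 and 8383 at day 4.

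Several of the 12 largest rises started from too few reads for a fold change. Cer1, a secreted inhibitor of Nodal, BMP and Wnt, had 2 reads in the day 2 libraries together and read 1453 and 997 at day 4, a ratio of 1349, with a 95% counting interval of 373 to 11141. Msgn1, a bHLH factor of presomitic mesoderm, had 3 reads at day 2 and read 784 and 893 at day 4 (ratio 595, with a 95% counting interval of 203 to 2886). For Hand2, the partner of Hand1 in heart mesoderm, 2 reads at day 2 stood against signals of 228 and 674 at day 4 (ratio 451, with a 95% counting interval of 124 to 3729.9). For Rgs5, a regulator of G-protein signalling known from pericytes, 3 reads stood against 374 and 761 (ratio 387, with a 95% counting interval of 132 to 1881). Samd3, a SAM-domain gene without a read at day 2, was at least 149.5-fold higher in the day 4 libraries. The floor for this bound was 3 reads in each day 2 library. The counting intervals and the floor cover counting error only.

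Primitive streak factors rose as a group: 16 of 20 were higher, 3 were lower and 1 was not called, with a median log2 change of 3.64 against -0.01 for all tested genes. T (brachyury), the T-box factor that marks the streak, read 123 and 236 at day 2, 5034 and 8310.1 at day 3 and 21465 and 16448 at day 4. Its 4 compared libraries were separated by a wide gap and day 3 had already passed day 2 by a larger factor than day 4 passed day 3, for a log2 change of 6.77 ± 0.34 (limma adjusted p = 5.2e-06). Eomes, the T-box factor of the anterior streak that acts with Nodal, was already high at day 2 and read 1625 and 1887 at day 2, 6645 and 8719 at day 3 and 15236 and 14426 at day 4 (log2 change 3.08 ± 0.15, limma adjusted p = 5.2e-06). Mixl1, a homeobox target of Nodal and T-box factors, read 52.8 and 56 at day 2, 1345 and 1960.3 at day 3 and 6108 and 6657 at day 4, with close replicates on each day (log2 change 6.85 ± 0.23, limma adjusted p = 1.1e-06).

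Evx1, a homeobox gene of the posterior streak, read 21.5 and 39.1 at day 2, 347 and 619 at day 3 and 4267 and 4806 at day 4. Sp5, a zinc-finger factor downstream of Wnt, read 128 and 192 at day 2, 1372 and 2332 at day 3 and 4852 and 7618 at day 4. In both genes the libraries of consecutive days did not overlap. Gata6, a zinc-finger factor shared by endoderm and cardiac mesoderm, rose by 6.91 on the log2 scale, Tbx6, the T-box factor of paraxial mesoderm, by 3.78 and Cdx2, a caudal homeobox factor, by 4.65. The 3 list members that fell were Fgf4 (-3.05), Nodal (-1.12) and Pou5f1 (-1.21), which are genes of the pluripotent epiblast as well as of the early streak. Tdgf1, the Nodal co-receptor Cripto, read 15269 and 20188 at day 2, 20000.1 and 18266 at day 3 and 18185 and 14057 at day 4 and was not called.

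**Figure D2:**
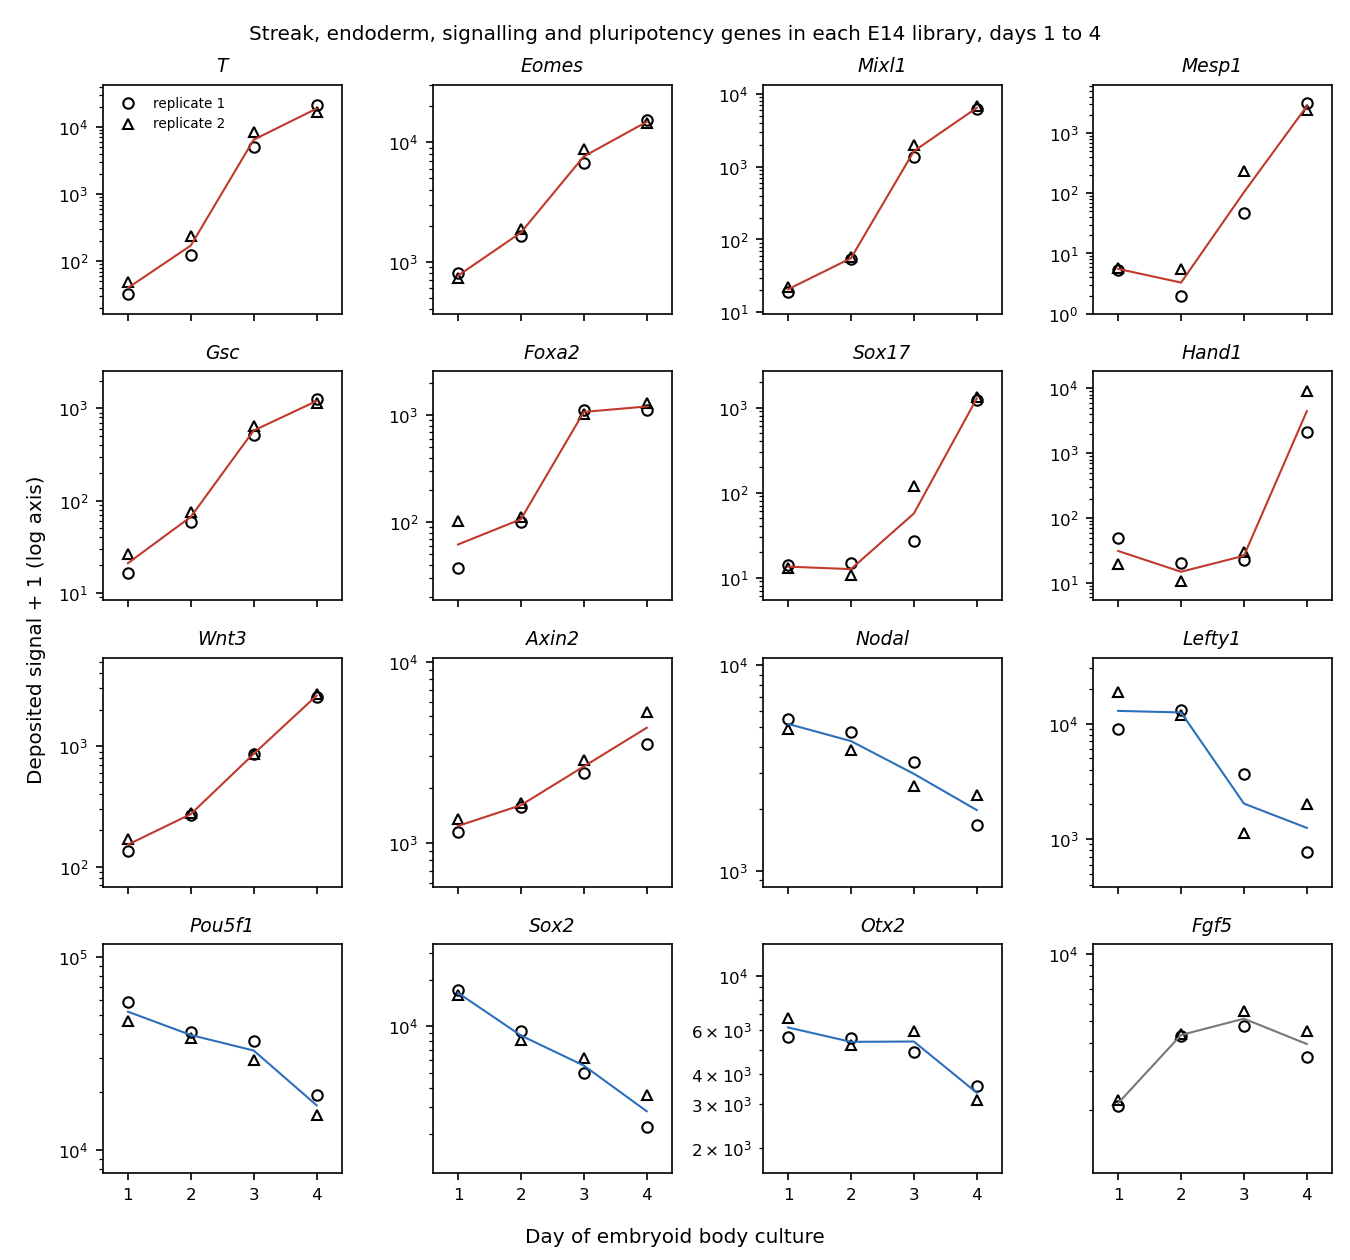
Deposited signal + 1 (log axis, a different range in each panel) in each E14 library at days 1 to 4 for 16 genes, circles for replicate 1, triangles for replicate 2 and lines for the daily mean, red for genes called higher at day 4 than at day 2, blue for lower and grey for not called. T, Mixl1 and Foxa2 climb most between days 2 and 3, Sox17 and Hand1 between days 3 and 4, and Fgf5 stays between 3457 and 5568 from day 2 on.

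Organiser and endoderm genes appeared in the same interval. Of 16 tested genes of the anterior streak and organiser 11 rose and 2 fell, and of 20 genes of definitive endoderm 14 rose and 1 fell (median log2 changes 2.99 and 2.62). Gsc, the homeobox repressor of the organiser, read 57.7 and 74.7 at day 2, 510.2 and 647 at day 3 and 1273 and 1138 at day 4 (log2 change 4.18 ± 0.29, limma adjusted p = 2.4e-05). Foxa2, the forkhead factor of node and endoderm, read 99.8 and 112 at day 2, 1129 and 1021 at day 3 and 1126 and 1296 at day 4, so its day 3 and day 4 libraries overlapped and the rise lay between days 2 and 3. Sox17, the HMG-box factor that defines endoderm, read 13.7 and 9.78 at day 2, 25.7 and 119 at day 3 and 1217 and 1346 at day 4, with most of the rise after day 3 (log2 change 6.67 ± 0.58, limma adjusted p = 7.5e-05).

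The secreted antagonists Dkk1, Frzb, Chrd and Nog rose, while Lefty1 fell and Lefty2 was not called. Dkk1, an inhibitor of the Wnt co-receptors, read 10.8 and 10.7 at day 2, 20 and 90.3 at day 3 and 744 and 1372 at day 4. Frzb, a Wnt-binding inhibitor, read 38.2 and 67.6 at day 2, 165 and 514 at day 3 and 2205 and 2051 at day 4. The BMP inhibitors Chrd and Nog changed by 1.86 and 4.55 on the log2 scale. Replicate 2 of day 3 held more of Dkk1, Frzb and Cer1 than replicate 1. Among endoderm genes Gata4 read 89.1 and 96 at day 2, 58.2 and 114 at day 3 and 4193 and 4189 at day 4, so days 2 and 3 overlapped. Cxcr4, the chemokine receptor of migrating endoderm and mesoderm, read 47 and 52.4 at day 2, 38.1 and 102 at day 3 and 1969 and 2206 at day 4. Hhex (2.10), Sox7 (4.28) and the membrane protease Tmprss2 (3.70) also rose, and the epithelial adhesion gene Epcam fell by 0.84 on the log2 scale. Lefty2, a Nodal inhibitor, read 4368 and 3455 at day 2, 2111 and 1336 at day 3 and 2895 and 3046 at day 4 and was not called.

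Mesoderm genes rose together. Of 19 tested lateral and cardiac mesoderm genes 17 rose and 0 fell in limma (median log2 change 4.31, the highest of the 33 lists). At an unadjusted p under 0.05, in edgeR and in DESeq2 the list also had 0 falls, and the same holds for the Wnt ligands and the Hox and Cdx genes below. Pdgfra, the receptor tyrosine kinase of early mesoderm, read 62.6 and 48.9 at day 2, 141 and 224 at day 3 and 3749.8 and 3709 at day 4 and its replicates at day 4 were nearly equal (log2 change 6.05 ± 0.28, limma adjusted p = 4.8e-06). Hand1 read 2145 and 9272 and Foxf1a, a forkhead factor of lateral mesoderm, 259.8 and 1011 at day 4, so replicate 2 was several-fold above replicate 1 in both, and Bmp4 had the same order with 1129.8 and 2558. Tbx20 (4.31), Tbx3 (3.52) and Isl1 (3.34), transcription factors of the cardiac progenitor fields, rose as well. Nkx2-5, a factor of committed heart cells, read 13.7 and 10.7 at day 2 and 37.1 and 38.1 at day 4 and was not called.

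Of 17 tested genes of blood and endothelial precursors 10 rose and 3 fell. Kdr, the VEGF receptor that marks the common precursor of both lineages, read 68.5 and 104 at day 2, 209.8 and 269 at day 3 and 8499 and 9201 at day 4 (log2 change 6.69 ± 0.37, limma adjusted p = 9.2e-06). Tal1 (3.10), Gata2 (3.90), Lmo2 (2.61), Etv2 (2.42) and Fli1 (4.88), the transcription factors of that precursor, rose together with Flt1 (2.49). The call of Tal1 was lost with all 10 E14 libraries in the fit (limma adjusted p = 0.0775). Embryonic globins were close to absent: Hba-x was at 0 or at 1 read in the compared libraries, Hbb-y read 0 at day 2, and Hbb-bh1 read 0 at day 2 and 0.825 and 28.3 at day 4. Pecam1, an adhesion molecule shared by endothelium and pluripotent cells, fell from 604 and 328 at day 2 to 91.5 and 172 at day 4, a call that was lost without replicate 1 of day 2.

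Of 18 presomitic and paraxial mesoderm genes 9 rose and 2 fell (median 1.43). Beside Msgn1, Tbx6 read 40.1 and 64 at day 2, 52.5 and 93.2 at day 3 and 779 and 649 at day 4. Rspo3, a Wnt agonist of the posterior mesoderm, read 49.9 and 42.7 at day 2, 134 and 269 at day 3 and 2336 and 2829 at day 4. Dll3, a Notch ligand of the presomitic mesoderm, read 594 and 642 at day 2, 562 and 775 at day 3 and 3159 and 2881 at day 4. The libraries of Tbx6, Msgn1 and Dll3 overlapped between days 2 and 3 and were well above both at day 4. Mesp2 read 54.8 and 70.2 at day 2, 50.5 and 77.2 at day 3 and 521 and 249 at day 4. Meox1, a homeobox gene of formed somites, read 10.7 and 7.61 at day 4 and was not called, and Tcf15, which is known both from the epiblast and from somites, fell from 1128 and 1084 at day 2 to 234 and 230.5 at day 4.

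Wnt ligands changed in one direction: 10 of 16 tested ligands were higher and 0 were lower (median log2 change 2.18). Wnt3, the ligand required for streak formation, read 269 and 276 at day 2, 858 and 862 at day 3 and 2530.1 and 2706 at day 4, with replicates within a few percent at days 2 and 3 (log2 change 3.26 ± 0.18, limma adjusted p = 9e-06). Wnt3a, the ligand of the later streak, read 2.94 and 5.33 at day 2, 16.2 and 55.3 at day 3 and 197 and 259 at day 4. Wnt5a, a ligand of the non-canonical branch, read 56.8 and 35.6 at day 2, 36.2 and 71.4 at day 3 and 1891 and 2667 at day 4. Wnt5b read 124 and 149 at day 2, 276 and 348 at day 3 and 835 and 1019 at day 4. The libraries of Wnt5a overlapped between days 2 and 3, whereas those of Wnt3, Wnt3a and Wnt5b were higher on each later day. Wnt2b rose from 30.3 and 31.1 at day 2 to 582 and 369.6 at day 4. Wnt2 rose from 4.89 and 0.889 at day 2 to 179.8 and 179 at day 4. Wnt11 rose from 34.3 and 55.1 at day 2 to 288 and 296 at day 4. Wnt8a, already at 2115 and 2158 at day 2, read 1402 and 1569 at day 4 and was not called.

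Of 17 Wnt receptors and co-receptors 3 were higher and 2 lower, shares close to those of all tested genes (median log2 change 0.30). Fzd1 read 125 and 168 at day 2, 259 and 317 at day 3 and 695 and 913 at day 4 (log2 change 2.45 ± 0.36, limma adjusted p = 0.001). The R-spondin receptor Lgr5 read 22.5 and 15.1 at day 2, 32.4 and 48.1 at day 3 and 319 and 597 at day 4. Its relative Lgr4 fell from 6205 and 5694 at day 2 to 2549 and 2719 at day 4. The calls of Fzd2 (0.81) and Fzd5 (-0.52) were lost on leaving out single compared libraries.

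Of 23 Wnt feedback and target genes 14 rose and 1 fell (median 1.42). Axin2, the general feedback target of the canonical pathway, read 1573 and 1644 at day 2, 2432 and 2852 at day 3 and 3522 and 5277 at day 4 and rose by 1.42 ± 0.19 on the log2 scale (limma adjusted p = 0.00073). Apcdd1 (3.12) and Nkd1 (2.76), which dampen the pathway, rose as well, both with replicate 2 above replicate 1 at day 4. Lef1 rose by 0.94, while its relative Tcf7 read 6223 and 6430.2 at day 2 and 6250.2 and 5929 at day 4 and was not called. The call of Lef1 was lost with all 10 E14 libraries in the fit (limma adjusted p = 0.338).

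Of 20 tested Nodal pathway genes 8 were higher (40%) and 4 lower (20%, median 0.36). Among all tested genes 14.8% were higher and 14.5% lower, so the lower share was near that of all genes. The ligand Nodal read 4716 and 3877 at day 2, 3378 and 2597 at day 3 and 1667 and 2334 at day 4 and fell by 1.12 on the log2 scale (limma adjusted p = 0.0024). Lefty1, a feedback inhibitor of Nodal that is itself a Nodal target, read 13026 and 11947 at day 2, 3672 and 1121 at day 3 and 771 and 2025 at day 4, so both day 4 libraries were several-fold below day 2 but differed between themselves (log2 change -3.32 ± 0.57, limma adjusted p = 0.0023). Gdf3, a TGF-β ligand of pluripotent cells, fell from 1181 and 1148 at day 2 to 143 and 229 at day 4. Skil, a repressor of SMAD targets, fell from 17384 and 14514 at day 2 to 7699 and 6838 at day 4. The Activin antagonist Fst rose from 1316 and 1691 at day 2 to 7368 and 7082 at day 4. The SMAD partner Foxh1 rose from 2821 and 2841 at day 2 to 5599 and 6071 at day 4. Smad3, a signal transducer of the pathway, rose by 1.15, a call lost without replicate 1 of day 2 or replicate 2 of day 4. Gdf1, a ligand, was at 0 in all libraries, and its overlap with a neighbouring gene makes that value uncertain.

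Of 24 BMP pathway genes 16 rose and 0 fell in limma (median 1.89). At an unadjusted p under 0.05 2 were lower, in DESeq2 1 and in edgeR 0. Bmp2, a ligand, read 6.85 and 5.33 at day 2, 31.5 and 52.4 at day 3 and 845 and 750.1 at day 4 (log2 change 6.82 ± 0.39, limma adjusted p = 9.2e-06). Bmp4 read 241 and 205 at day 2, 151 and 230.1 at day 3 and 1129.8 and 2558 at day 4. The transducer Smad1 rose from 843 and 839 at day 2 to 3549 and 3601 at day 4. The inhibitory Smad6 rose from 324 and 322 at day 2 to 1294 and 2312 at day 4. Homeobox targets of the pathway had large rises: Msx2 read 27.4 and 48.9 at day 2, 37.2 and 80.1 at day 3 and 1959 and 4089 at day 4. Msx1 read 87.1 and 74.7 at day 2, 109.7 and 154 at day 3 and 852 and 1958 at day 4. At day 4 Bmp4, Msx1, Msx2 and Smad6 were all higher in replicate 2 than in replicate 1, while the replicates of Bmp2 and Smad1 were close. Bmper, an extracellular modulator of BMP, rose by 5.46 on the log2 scale. The general BMP targets Id1 (1.26) and Id3 (1.16) were called as higher, and leaving out single compared libraries ended both calls.

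In the FGF pathway 8 of 21 genes rose (38.1%) and 2 fell (9.52%), against 14.8% and 14.5% of all tested genes (median 0.34). Fgf8, the streak ligand needed for cells to leave it, read 1149 and 1321 at day 2, 4484 and 4449 at day 3 and 5758 and 5853 at day 4, with most of its rise before day 3 (log2 change 2.24 ± 0.14, limma adjusted p = 1.5e-05). With all 10 E14 libraries in the fit the call of Fgf8 was lost (limma adjusted p = 0.174). Fgf10 read 12.7 and 17.8 at day 2, 79.2 and 111 at day 3 and 1964 and 1945 at day 4. Fgf3 read 65.6 and 61.3 at day 2, 28.6 and 61.2 at day 3 and 1267 and 1966 at day 4. Fgf4, the ligand of the pluripotent epiblast, fell from 4709 and 2867 to 504 and 388. Dusp4, a phosphatase induced by ERK, rose from 1339 and 1332 at day 2 to 5422 and 5640.2 at day 4. Etv5, an ETS target of FGF that is also a pluripotency factor, fell from 13299 and 11752 at day 2 to 5586 and 5874 at day 4. The receptor Fgfr1 was called at 0.61, and that call was lost on leaving out any one of the 4 compared libraries.

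**Figure D3:**
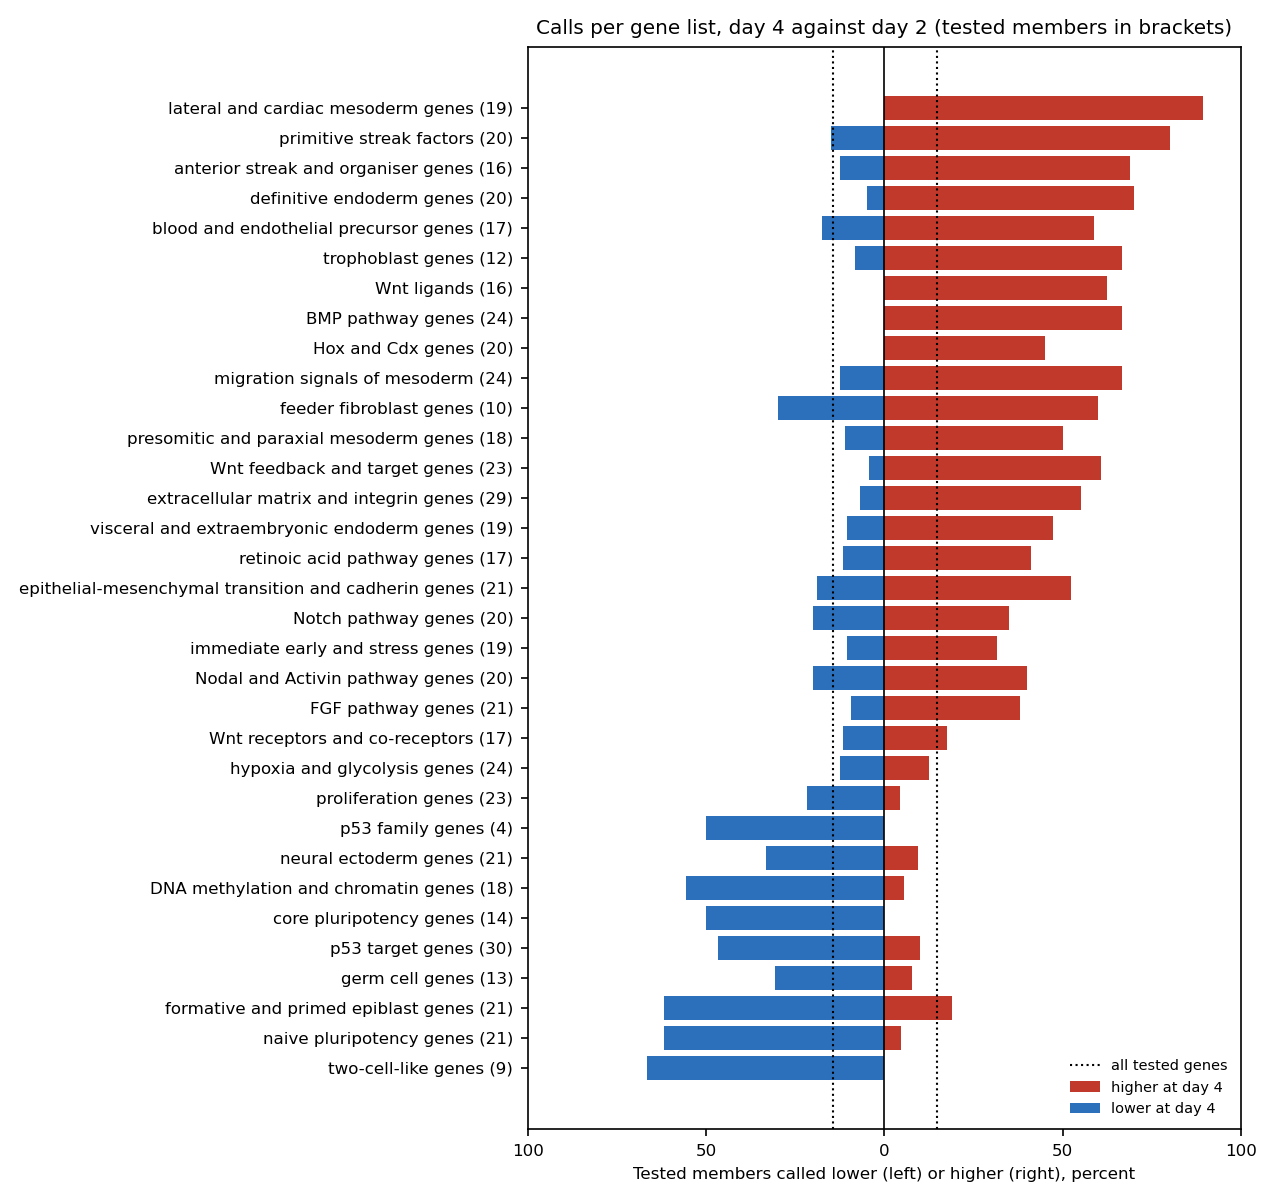
Share of the tested members of each of 33 gene lists called higher (red, to the right) or lower (blue, to the left) at day 4 than at day 2, in percent, ordered by the median change, with the number of tested members in brackets. Dotted lines mark the share of all tested genes, 14.8% higher and 14.5% lower. Mesoderm, streak, endoderm, Wnt ligand and BMP lists reach far to the right, and pluripotency, two-cell-like and DNA methylation lists to the left.

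Genes of the epithelial to mesenchymal transition rose in 11 of 21 cases and fell in 4. Their lower share was near the 14.5% of all tested genes called lower. Their higher share was well above the 14.8% of all tested genes called higher. Snai1, the zinc-finger repressor of E-cadherin, read 208 and 216 at day 2, 439 and 549 at day 3 and 3579 and 2891 at day 4 (log2 change 3.92 ± 0.19, limma adjusted p = 5.2e-06). Cdh2 (N-cadherin) read 888 and 804 at day 2, 1117 and 1697 at day 3 and 8314 and 8096 at day 4. Cdh1 (E-cadherin) read 25994 and 27164 at day 2, 23457 and 25686 at day 3 and 17072 and 17118 at day 4, a log2 change of -0.64 ± 0.13 (limma adjusted p = 0.0054). E-cadherin transcripts were thus lower but still abundant at day 4. The mesenchymal cadherin Cdh11 read 35.2 and 48.9 at day 2, 427 and 768 at day 3 and 3135 and 3902 at day 4. Zeb1 (3.21), Zeb2 (2.53), Twist1 (1.77) and Vim (1.72) rose, and Grhl2, an epithelial transcription factor, fell by 1.65 on the log2 scale.

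Of 24 signals of mesoderm migration 16 rose and 3 fell (median 1.72). Besides Aplnr, its ligand Apln rose from 301 and 494 at day 2 to 3159 and 2553 at day 4. Plxna2, a semaphorin co-receptor, read 127 and 127 at day 2, 355 and 616 at day 3 and 4392 and 3409 at day 4. Its day 4 libraries were far above day 2 and day 3 lay between. Sema3a, a secreted semaphorin, read 7.83 and 10.7 at day 2 and 213 and 221 at day 4. Cxcl12, the ligand of Cxcr4, went the other way, from 2286 and 2968 at day 2 to 919 and 827 at day 4, and this call was lost without replicate 2 of day 2 or either library of day 4.

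Matrix and integrin genes rose in 16 of 29 cases and fell in 2 (median 1.09). Fn1 (fibronectin), the matrix on which mesoderm migrates, read 14906 and 13669 at day 2, 9245 and 15982 at day 3 and 120135 and 109717 at day 4, so the day 3 libraries stood on either side of day 2 and day 4 was far above both (log2 change 3.01 ± 0.22, limma adjusted p = 2.8e-05). Its receptor subunits Itga5 and Itgb1 rose by 1.74 and 0.94. Itga8 read 51.9 and 55.1 at day 2, 138 and 173 at day 3 and 981 and 768 at day 4. The basement membrane collagens Col4a1 and Col4a2 rose by 2.29 and 2.68 and the laminin chain Lama1 by 1.93, while Col18a1 fell by 1.36 on the log2 scale.

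Pluripotency genes fell, but unevenly. Of 14 core genes 7 were lower and 0 higher (0 also at an unadjusted p under 0.05, in edgeR and in DESeq2), of 21 formative and primed epiblast genes 13 were lower and 4 higher, and of 21 naive genes 13 were lower and 1 higher (medians -0.54, -1.13 and -1.36). Pou5f1 (OCT4) read 41155 and 37910 at day 2, 36929.5 and 29149 at day 3 and 19249.6 and 15112 at day 4 and fell by 1.21 on the log2 scale (limma adjusted p = 0.0009), and Sox2 read 9369 and 8120 at day 2, 4999 and 6189.6 at day 3 and 2210.1 and 3559 at day 4 (log2 change -1.64 ± 0.21, limma adjusted p = 0.00051). Nanog, which is known to be re-expressed in the posterior epiblast, read 333 and 379 at day 2, 647 and 769 at day 3 and 455 and 442 at day 4: both day 3 libraries were above all others, and day 4 against day 2 was not called (0.34 ± 0.24, limma adjusted p = 0.32). Sall4 read 11294 and 10159 at day 2 and 11734 and 12162 at day 4 and was not called.

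Among formative genes Foxd3, a forkhead factor of the epiblast, read 3454 and 2619.5 at day 2, 1333 and 1282 at day 3 and 280.4 and 372 at day 4 (log2 change -3.22 ± 0.18, limma adjusted p = 9.2e-06). Utf1 fell from 14335 and 11906 at day 2 to 2331 and 2767 at day 4. The POU factor Pou3f1 fell from 11463 and 7852 at day 2 to 1334 and 2308 at day 4. The de novo DNA methyltransferases fell as well: Dnmt3b read 101150 and 88494 at day 2, 69955 and 53701 at day 3 and 30678 and 27818 at day 4. Dnmt3a read 22298 and 15379.5 at day 2, 9871 and 8722 at day 3 and 6007 and 6376 at day 4. Their cofactor Dnmt3l read 7266 and 3705 at day 2, 2274 and 1535 at day 3 and 971 and 898 at day 4. All 3 were lower on each later day in both replicates. Among 18 DNA methylation and chromatin genes 10 fell and 1 rose. They included the dioxygenase Tet1 (-1.15) and the Polycomb subunit Cbx7 (-1.14). The glycosylase Tdg was near 0 in all libraries, and near-identical copies in the genome make that value uncertain.

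Several naive genes were still read at day 2 and were lower at day 4: the DNA-binding protein gene Dppa2 read 1786 and 1259.5 at day 2, 598 and 288 at day 3 and 119.6 and 133 at day 4. Dppa5a read 23632 and 17059 at day 2, 10074 and 6313 at day 3 and 3157 and 2371 at day 4. The orphan receptor Esrrb read 1804 and 1600 at day 2, 966 and 738 at day 3 and 322 and 521 at day 4. Klf2 fell from 2291 and 2609 at day 2 to 361 and 608 at day 4. Zfp42 (REX1) fell from 1496 and 1038 at day 2 to 371 and 511 at day 4, a call lost without replicate 1 of day 2 or either library of day 4. Dppa5a has processed copies in the genome, so its reads may be shared. The one naive gene that rose was Tbx3, from 431 and 318 at day 2 to 3348 and 5440.1 at day 4, which is also a factor of lateral mesoderm. Klf4 read 193 and 169.8 at day 2 and 207 and 422 at day 4.

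The 12 largest falls among genes with no overlap and at least 10 CPM at day 2 held few streak or lineage factors. Kirrel2 and Nphs1 (nephrin), adhesion molecules that lie next to each other on chromosome 7 in the RefSeq annotation of GRCm38.p6, fell from 869 and 536 at day 2 to 21.4 and 19.6 at day 4 and from 2503 and 1495 at day 2 to 131 and 68.5 at day 4 (log2 changes -4.99 ± 0.38 and -4.34 ± 0.36, limma adjusted p at most 5.9e-05). Gfra1, a co-receptor of GDNF, read 424 and 295 at day 2, 69.6 and 109 at day 3 and 18.1 and 22.8 at day 4. Capn3, a calpain protease, read 477 and 241 at day 2, 96.3 and 36.4 at day 3 and 14.8 and 23.9 at day 4. Nr0b1 (DAX1), an orphan receptor of the pluripotency network, read 529 and 356 at day 2, 202 and 93.2 at day 3 and 30.5 and 32.6 at day 4. Day 3 lay between days 2 and 4 in both replicates of Gfra1, Capn3 and Nr0b1. Mcf2, an exchange factor for small GTPases (-3.56), the non-coding RNA Miat (-3.53), Morc1, a germline silencing factor (-3.29), and the neuronal factor Neurod1 (-3.26) completed the set with Dppa2, Foxd3 and Lefty1.

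Of 21 tested neural ectoderm genes 7 fell and 2 rose (median -0.36), and several of those that fell, such as Sox2, Sox3 and Pou3f1, are epiblast genes too. Pax6, the paired-box factor of neural progenitors, read 205 and 248 at day 2, 52.5 and 72.8 at day 3 and 19.8 and 29.4 at day 4 (log2 change -3.17 ± 0.30, limma adjusted p = 0.00012). Sox1, the earliest neural plate marker, read 24.5 and 26.7 at day 2, 5.72 and 45.1 at day 3 and 28 and 316 at day 4, so a single library of day 4 stood apart and the change was not called (adjusted p = 0.22). Tubb3, the neuronal tubulin, fell by 1.99 on the log2 scale.

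Markers of other cell types were examined in the same way. Of 19 visceral and extraembryonic endoderm genes 9 rose and 2 fell, and their summed signal was 24182 and 28703 at day 2 and 42905 and 46754 at day 4. Of the defining genes Ttr read 1.96 and 1.78 at day 2 and 4.95 and 14.1 at day 4 and was not tested. Afp, at 0 reads in the day 2 libraries, read 9.9 and 9.78 at day 4 and rose (at least 3.51-fold higher, with 3 reads in each day 2 library as the floor). Gata4, Sox7 and Col4a1, which other lists hold too, rose as well. Of 12 trophoblast genes 8 rose and 1 fell, with sums of 2928 and 3583 at day 2 and 20788 and 31062 at day 4, of which Hand1, Krt8 (9084 and 8963 at day 4) and Krt18 (6376 and 8614) made up most. Gata3 rose from 12.7 and 11.6 at day 2 to 407 and 378 at day 4, but Tpbpa and Prl3d1 were at 0 in all 4 libraries and Elf5 read 4.95 and 5.44 at day 4. Of 10 fibroblast genes 6 rose and 3 fell (sums 1681 and 1896 at day 2, 6145 and 7654 at day 4), led by Tagln (4094 and 3539.8 at day 4), while Lum was at 0 throughout and Fap had at most 1 read in a library. Thy1 fell, and Dcn fell with a call that was lost without replicate 1 of day 2 or either library of day 4. The part of other cell types in the results was not tested.

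Germ cell genes fell in 4 of 13 cases (30.8%) and rose in 1 (7.69%), against 14.5% and 14.8% of all tested genes. Dazl, an RNA-binding protein gene of germ cells, fell from 484 and 367 at day 2 to 64.3 and 93.5 at day 4. Mael, of the piRNA pathway, fell from 1303 and 1104 at day 2 to 240 and 173 at day 4. Of 9 tested genes of the two-cell-like state 6 fell and 0 rose in limma (median -1.78), and 0 rose at an unadjusted p under 0.05, in edgeR or in DESeq2. Zscan4d read 1467 and 984 at day 2, 596 and 291 at day 3 and 128 and 358 at day 4 and Zscan4c 695 and 514 at day 2 and 78.3 and 209 at day 4. In both genes replicate 2 of day 4 was well above replicate 1, and the call of Zscan4c was lost without replicate 1 of day 2 or replicate 1 of day 4. Zscan4 copies are near identical, so their reads may be split between them.

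The p53 gene itself was not called. Trp53 read 10656 and 9261 at day 2, 7259 and 8029 at day 3 and 8076 and 9614 at day 4 (log2 change -0.17 ± 0.15, limma adjusted p = 0.43). Trp73, the relative that activates some of the same genes, read 902 and 897 at day 2, 572 and 472 at day 3 and 161 and 176 at day 4 and fell in both replicates on each day (log2 change -2.41 ± 0.21, limma adjusted p = 7.9e-05). Trp63 read 2.94 and 1.78 at day 2 and 0.825 and 8.7 at day 4 and was not tested. Mdm4, an inhibitor of p53, read 2576 and 2537 at day 2 and 2327 and 2237 at day 4 without a call.

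Of 30 p53 target genes 14 fell and 3 rose (median -0.54). Ephx1, an epoxide hydrolase, fell from 176 and 238 at day 2 to 46.2 and 47.8 at day 4. The secreted stress factor Gdf15 fell from 63.6 and 78.2 at day 2 to 10.7 and 23.9 at day 4. The death effector Bax fell from 9765 and 8799 at day 2 to 5589 and 5390.1 at day 4. Eda2r (-0.88), a TNF receptor, and Ccng1 (-0.76), a cyclin, were lower as well. Mdm2, the ubiquitin ligase that p53 induces, read 4333 and 4595 at day 2, 3598 and 3481 at day 3 and 2890.5 and 3533 at day 4 (log2 change -0.48 ± 0.13, limma adjusted p = 0.023). The calls of Ccng1 and Mdm2 were lost without replicate 1 of day 2. With all 10 E14 libraries in the fit Eda2r, Ccng1 and Mdm2 lost their calls (limma adjusted p = 0.156, 0.193 and 0.37). Cdkn1a (p21) read 1756 and 1865 at day 2, 2242 and 1513 at day 3 and 2146 and 3069 at day 4 and was not called (adjusted p = 0.1). The 3 that rose, Pmaip1, Btg2 and Perp, changed by 0.67, 0.51 and 0.77 and each lost its call on leaving out single compared libraries.

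Hox and Cdx genes, which give cells their position along the body axis, rose in 9 of 20 tested cases and fell in 0 (median 1.89). Hoxb1, the first Hox gene of the streak, read 177 and 162 at day 2, 58.2 and 65.5 at day 3 and 886 and 1099 at day 4, so it was lowest at day 3. Hoxb2 and Hoxb3 had the same dip, with 96.9 and 97.8 at day 2, 18.1 and 43.7 at day 3 and 363 and 682 at day 4 and 88.1 and 94.2 at day 2, 34.3 and 39.3 at day 3 and 354 and 639 at day 4. Hoxd8 rose from 2.94 and 1.78 at day 2 to 26.4 and 55.4 at day 4.

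Among Notch genes 7 of 20 rose (35%) and 4 fell (20%). Among all tested genes 14.8% were higher and 14.5% lower, so the lower share was near that of all genes. The targets Hey1 (1.55), Nrarp (1.71) and Hes1 (1.32) rose and the glycosyltransferase Mfng fell by 1.59 on the log2 scale. In the retinoic acid pathway 7 of 17 rose (41.2%) and 2 fell (11.8%), again with a lower share near that of all genes. The degrading enzymes Cyp26a1 and Cyp26c1 (from 9.79 and 14.2 at day 2 to 164 and 180.5 at day 4) rose.

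Genes of the cell cycle and of glycolysis were called about as often as all tested genes, of which 29.4% were called in either direction. Of 23 proliferation genes 1 rose and 5 fell: Ccnd2 (1.06) was higher, and Ccne1 (-1.01), Mcm2 (-0.59) and Mcm5 (-0.51) were among the lower ones. Of 24 hypoxia and glycolysis genes 3 rose and 3 fell, with Vegfa from 812 and 1519 at day 2 to 3516 and 2814 at day 4 and Ndrg1 at 1.24. All 6 of these calls were lost without replicate 1 of day 2. Eno1 was near 0 in all libraries, a value made uncertain by near-identical copies. Of 19 immediate early and stress genes 6 rose (31.6%) and 2 fell (10.5%), against 14.8% and 14.5% of all tested genes. Egr3, an early target of growth factor signalling, rose from 3.91 and 3.56 at day 2 to 141 and 116 at day 4. Junb rose by 1.75 on the log2 scale.

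The interval was then split at day 3. Between day 2 and day 3 117 genes were higher (0.744%) and 95 lower (0.604%), and between day 3 and day 4 807 were higher (5.13%) and 506 lower (3.22%). The day 3 libraries differed in this respect: genes called higher between day 2 and day 4 had covered a median of 32.5% of their log2 change in replicate 1 of day 3 and 52.4% in replicate 2 (43.1% in the mean), and genes called lower 39.1% and 53.2%. For all tested genes, most of them not called, the medians were 37.2% and 58.1%, so the gap was not particular to the called genes. The contrast of the 2 daily steps found 49 genes with a larger step after day 3 (0.312%) and 6 with a smaller one (0.0382%). Steps carry their sign, so a gene that fell only after day 3 counts among the smaller ones. Without replicate 1 of day 3 or replicate 2 of day 4 limma called 0 genes in either direction (965 and 611, and 539 and 201, at an unadjusted p under 0.05). Without replicate 2 of day 3 there were 16 and 0 (763 and 244 at an unadjusted p), and without replicate 1 of day 2 6 and 0 (586 and 204). Without replicate 2 of day 2 they were 16 and 1, and without replicate 1 of day 4 18 and 1. Leaving out replicate 1 of day 1 raised the counts to 93 and 24, and leaving out its replicate 2 to 95 and 23.

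T, Mixl1 and Fgf8 were the streak genes with a smaller step after day 3. Their log2 steps shrank by 3.70, 2.90 and 1.48 from the first day to the second (limma adjusted p at most 0.046). Some of the named genes had a larger step after day 3. The log2 step after day 3 exceeded the step before it by 9.35 for Hand2 and 7.19 for Msgn1, both from 3 reads or fewer at day 2. For Nrp1, a co-receptor of semaphorins and VEGF, it did so by 6.41, for Gata4 by 5.85, for Fgf3 by 5.79 and for Wnt5a by 5.26. Hoxb2 (5.84) and Hoxb1 (5.42) combined the day 3 dip with a later rise, Fn1 had a difference of 3.47 and Cxcr4 one of 4.71 (limma adjusted p at most 0.035 for these 10 genes).

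**Figure D4:**
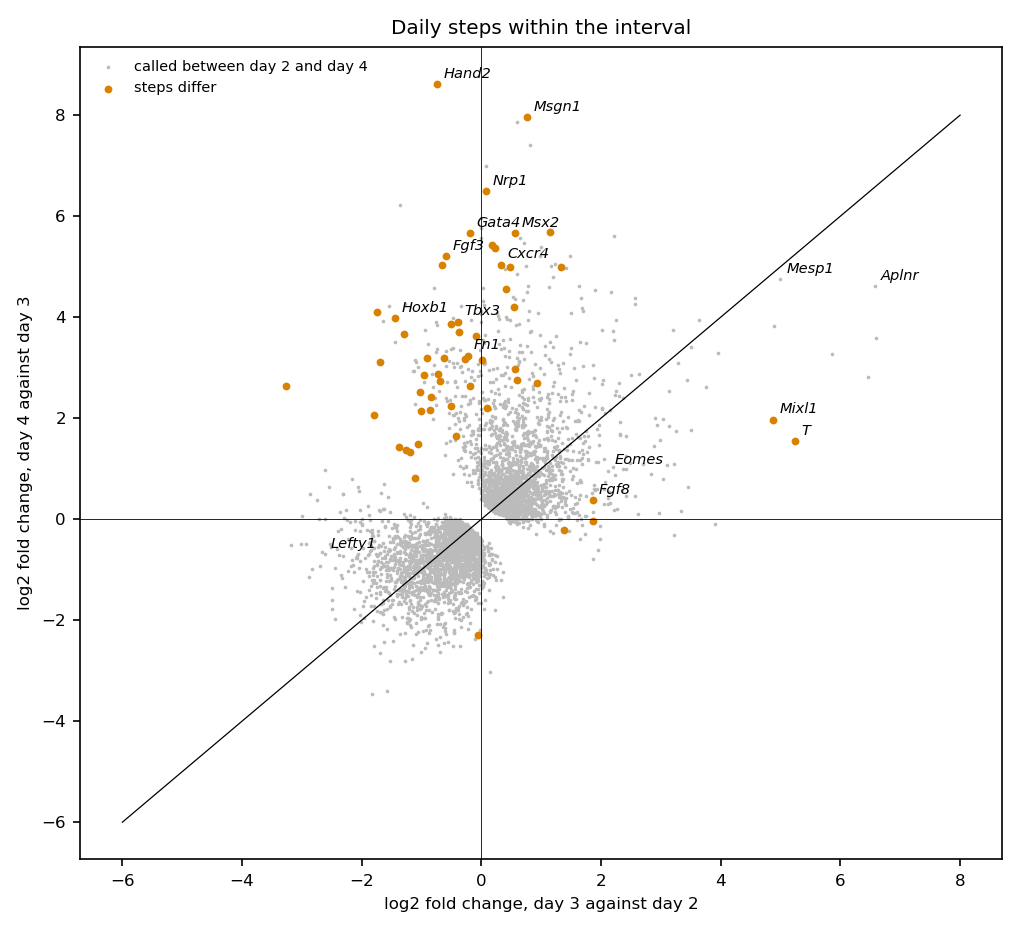
Log2 fold change of day 3 against day 2 (x axis) and of day 4 against day 3 (y axis) for the genes called between day 2 and day 4 (grey), with genes whose 2 steps differ at an adjusted p under 0.05 in orange and the line of equal steps. T, Mixl1 and Fgf8 lie below the line, and Hand2, Msgn1, Nrp1, Gata4 and the Hox gene Hoxb1 lie above it near or left of 0 on the x axis.

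The genes of the interval were last looked up in the day 4 EBs of the 2 genotypes. The targeted genes were checked first. Trp53 read 8339 and 11784 in the Trp53+/+ libraries and 866 and 802 in the p53 family loss libraries (log2 change -3.57 ± 0.20, limma adjusted p = 0.0017). Trp73 read 219 and 297 in the Trp53+/+ libraries and 48 and 52.5 in the p53 family loss libraries (adjusted p = 0.022), and Trp63, at 0 to 6.1 in all 4 libraries, was not tested. The labelled loss was thus seen for Trp53 and Trp73, and Trp63 was too low for a check. Replicate 2 of each genotype held more ribosomal Rn45s reads, 4.30% and 2.91% of the library, than replicate 1 (0.632% and 0.848%). Its part in the result was not tested.

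Of 14840 genes tested between the genotypes, 100 were lower in p53 family loss (0.674%) and 84 higher (0.566%). Among the 2262 genes that had risen from day 2 to day 4 and were tested here, 56 were lower (2.48%) and 12 higher (0.531%). Among the 2001 that had fallen, 14 were lower (0.700%) and 22 higher (1.10%). For all 14666 genes tested in both tables the shares were 0.682% lower and 0.491% higher. The 56 genes were 56% of those lower in p53 family loss. The lower and higher counts moved to 643 and 956 without replicate 1 of Trp53+/+ and to 594 and 512 without its replicate 2, and the higher count to 50 without replicate 1 of p53 family loss.

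Streak factors were among the lower genes. T read 10292 and 9092 in the Trp53+/+ libraries and 1554 and 1100.1 in the p53 family loss libraries (log2 change -2.89 ± 0.20, limma adjusted p = 0.0044). Eomes read 12022 and 16743 in the Trp53+/+ libraries and 3112 and 3469 in the p53 family loss libraries. Mixl1 read 4174 and 5286 in the Trp53+/+ libraries and 835 and 837 in the p53 family loss libraries. In all 3 genes the libraries of the genotypes were several-fold apart without overlap. Mesp1 read 731 and 1333 in the Trp53+/+ libraries and 76.1 and 113 in the p53 family loss libraries. Lhx1 read 7682 and 4566 in the Trp53+/+ libraries and 914 and 1173 in the p53 family loss libraries, with log2 changes of -3.40 ± 0.35 and -2.52 ± 0.27. Gsc (-1.96), Foxa2 (-1.61), Evx1 (-2.49), Sp5 (-2.47), Fgf8 (-1.45), Snai1 (-2.10), Aplnr (-2.42), Pcdh7 (-2.70) and Cyp26a1 (-2.45) were called lower as well (limma adjusted p at most 0.042).

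Of the Wnt genes Wnt3 read 1108 and 1289.5 in the Trp53+/+ libraries and 258 and 219 in the p53 family loss libraries. Wnt3a read 82.5 and 135 in the Trp53+/+ libraries and 10.3 and 12.9 in the p53 family loss libraries. The receptor Fzd1 read 976 and 793 in the Trp53+/+ libraries and 241 and 219 in the p53 family loss libraries, and all 3 were called lower (limma adjusted p at most 0.027). Other genes of the interval did not pass this test, which takes no account of the replicate numbers. Hand1 read 784 and 194 in the Trp53+/+ libraries and 260.2 and 92 in the p53 family loss libraries. Cer1 read 1850.5 and 516 in the Trp53+/+ libraries and 169 and 501 in the p53 family loss libraries. Kdr read 2132 and 708 in the Trp53+/+ libraries and 911 and 346 in the p53 family loss libraries. Sox17 read 1448 and 572 in the Trp53+/+ libraries and 177 and 294 in the p53 family loss libraries, and none of the 4 was called (adjusted p from 0.12 to 0.51). Replicate 1 of Trp53+/+ was above replicate 2 in all 4 of them.

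Pax6, which fell from day 2 to day 4, and Sox1, which was not called there, were higher in p53 family loss. Pax6 read 17.4 and 17.2 in the Trp53+/+ libraries and 496 and 469.6 in the p53 family loss libraries. Sox1 read 104 and 125 in the Trp53+/+ libraries and 2885 and 2596 in the p53 family loss libraries (log2 changes 4.72 ± 0.27 and 4.57 ± 0.19, limma adjusted p at most 0.0017). Pou5f1 read 15301 and 28216 in the Trp53+/+ libraries and 9619 and 14947 in the p53 family loss libraries. Fgf5 read 5059.7 and 4848 in the Trp53+/+ libraries and 3570 and 3849.9 in the p53 family loss libraries, and neither was called. Of the p53 targets Cdkn1a (-3.77), Phlda3 (-5.25), Eda2r (-4.85) and Ccng1 (-4.23) were lower. The strain, the culture medium and the line differ from those of the E14 time course, and each genotype is represented by 1 line as far as the labels say.

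**Figure D5:**
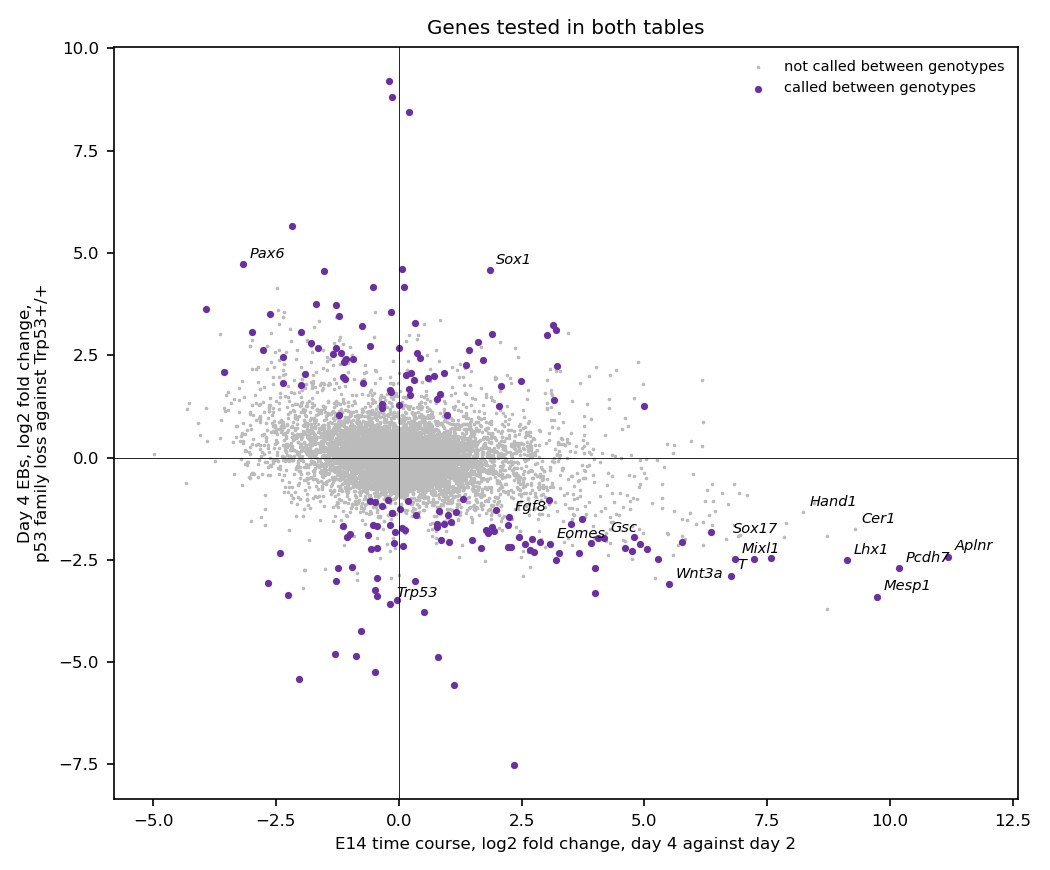
Log2 fold change of day 4 against day 2 in E14 EBs (x axis) and of p53 family loss against Trp53+/+ in day 4 EBs (y axis) for the genes tested in both tables, with genes called between the genotypes in purple and all others in grey. T, Mixl1, Mesp1, Lhx1, Pcdh7 and Aplnr lie at the lower right, Pax6 at the upper left and Trp53 below 0 near the centre of the x axis.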

How the data were processed

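RNA of EBs was sequenced as paired ends after TruSeq RNA v2 library preparation, which does not mark strand, from RNA with an integrity number above 9.5, per the labels' protocols. The submitters' processing notes list, without their roles, the build mm9 and the tools HTSeq 0.5.4, Bowtie2, DESeq2, SAMtools 0.1.19 and FastQC 0.11.3. The authors deposited a signal per gene and library in a time-course table and a genotype table. Each value was a whole read count divided by one factor per library, since 100% of the values came out as whole reads (tolerance 1e-06 of a read), so reads could be recovered for filters, edgeR and DESeq2.

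The 8 EB libraries of days 1 to 4 were fitted together with limma 3.58.1 (R 4.3.3, intensity trend) on log2(signal + 1), with Benjamini-Hochberg adjustment over 15724 of 23284 genes that passed edgeR's filterByExpr on recovered reads. The genotype table was fitted alone, 2 against 2. The planned edgeR test for raw counts was run as an alternative on recovered reads (edgeR 4.0.16), as was DESeq2 1.42.0. Other alternatives were the pseudocount, the filter, the scaling, the libraries in the fit, a replicate block and leaving out each library. The fit of the days and that of the genotypes were tested on simulated data. They recovered 40.3% and 37.3% of simulated 2-fold changes and 85.1% of 4-fold changes in both fits. Of 8-fold changes they recovered 98.5% and 93.9%. Many simulated 2-fold changes thus went without a call. In each simulation 67, 67 and 66 genes were changed by 2-fold, 4-fold and 8-fold, and 13 and 10 unchanged genes were called. Between day 2 and day 4 29.4% of the tested genes were called. The adjustment was therefore less strict there than in the simulation, and the recovered shares may not carry over to that comparison. Library depth was 20104644 to 39835808 reads in the time course and 19104692 to 31580252 in the genotype table, and a count of 0 allows up to 3 reads.

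Named are the 12 largest rises and falls among called genes without overlap and with at least 10 CPM, up to 5 members of each of 33 lists with the smallest p, a set of streak, pluripotency and p53 genes, and the 6 largest differences between daily steps in each direction. 82 further genes, and 7 further lists, were chosen after their values were seen. The members and lists were chosen with earlier results of these data known. Symbols were matched directly or through RefSeq synonyms. The 16 ChIP and input samples were not analysed here. A few genes that the rule names are not reported here.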

Additional observations from a re-analysis of the deposited data

Results flagged for a closer look

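One kind of result was singled out here: genes among those named whose log2 step from day 3 to day 4 differed from the step from day 2 to day 3, by a test of that difference in limma (adjusted p under 0.05 over all 15724 tested genes). The values below are the later step minus the earlier one. Steps carry their sign, so a gene that fell only after day 3 counts as having a smaller later step.

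Of the genes with a larger later step, Hand2 (9.35), Msgn1 (7.19), Isl1 (4.37), Tbx3 (4.29) and Gata4 (5.85) are transcription factors of mesoderm or endoderm. Hoxb2 (5.84), Hoxb1 (5.42) and Hoxb3 (4.95) are neighbours in the Hoxb cluster, and each was lower at day 3 than at days 2 and 4. Fgf3 (5.79), Wnt5a (5.26), Bmper (4.52), Dll3 (2.10) and the BMP target Msx2 (5.10) belong to signalling pathways. Nrp1 (6.41), Cxcr4 (4.71) and Fn1 (3.47) act in guidance and migration. Crabp1, a retinoic acid binding protein gene, had a difference of 3.15 with a dip at day 3, and the imprinted gene Asb4 one of 3.66.

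A smaller later step was found for the streak genes T (-3.70), Mixl1 (-2.90) and Fgf8 (-1.48), whose rise came mostly before day 3. Adamts9, a matrix protease gene, had a difference of -1.91 and Agpat3, an acyltransferase gene, one of -1.59. Myb, a transcription factor gene of blood progenitors, read 1191 and 1234 at day 2, 1104 and 1226 at day 3 and 255 and 222 at day 4. Its difference of -2.23 is negative because the gene fell after day 3, so most of its change came in the later step. Day 3 enters this contrast with the largest weight, and its replicate 2 had covered more of the change between days 2 and 4 than its replicate 1. The part of that difference in these results was not tested.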

How the results depend on the processing

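The results between days were recomputed under the settings below, one at a time, and those between genotypes under a pseudocount of 5, no filter, edgeR, the replicate block and leaving out 1 library. The number of genes higher at day 4, 2335, became 1331 with all 10 E14 libraries in the fit, and the number lower, 2283, became 1217. It stayed within 1.5 times under a pseudocount of 5 (2435 and 2308), no filter on low values (2272 and 2143), a filter at a mean of 1 CPM (2047 and 1937), TMM scaling (2413 and 2229), edgeR (2424 and 2185), DESeq2 (2436 and 2251) and with only the compared days in the fit (3486 and 3326). Leaving out 1 library at a time gave 1048 to 2964 genes higher and 886 to 2793 lower. All 2335 and 2283 calls that an alternative could test kept their sign in it.

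Genes with a larger later step, 49, became 81 with a pseudocount of 5, 20 without the filter, 6 with all 10 libraries, 95 with only the compared days and 187 in DESeq2, and ranged from 0 to 95 on leaving out 1 library. Genes with a smaller later step, 6, became 2 without the filter, 0 with all 10 libraries, 25 with only the compared days and 43 in DESeq2, and ranged from 0 to 24. The counts of 0 came from limma, with 143 genes at an unadjusted p under 0.05 in the smaller direction with all 10 libraries. Genotype counts, 100 lower and 84 higher, ranged from 94 to 643 and from 50 to 956 on leaving out 1 library. Where a day or genotype kept 1 library, that library was assumed to vary like the other groups.

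The replicate numbers are not said to mark a shared culture. Deviations of replicate 1 from the mean correlated across genes between days at -0.070 (days 1 and 4) to 0.351 (days 2 and 3) and at 0.572 between the genotypes. With 2 libraries a day or genotype, these values cannot tell whether the numbers mark pairs. With the replicate number as a replicate block the counts were 2665 higher and 2602 lower, 99 and 13 for the larger and smaller later step, and 1425 lower and 1548 higher in p53 family loss. With that block Hand1, Cer1, Kdr and Sox17, not called without it, were lower in p53 family loss (limma adjusted p at most 0.013).

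Of 232 called genes named in the text or by its rule, 190 kept their call in every setting and 36 lost it on leaving out 1 library. With all 10 E14 libraries in the fit 27 lost it. Among all named genes the sign changed only for genes that were not called. On leaving out 1 library the log2 change of Apoe ranged from -0.16 to 0.32, that of Fgf5 from -0.33 to 0.060 and that of Tdgf1 from -0.34 to 0.066. The cause of these differences was not tested. With 2 libraries a day, small changes and genes with few reads are the ones most limited, and a gene without a call is not shown to be unchanged.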

Other observations

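7 further gene groups were described after the values had been seen, so their counts carry no test and their members were chosen with the values known. Imprinted genes included 15 of 50 that rose and 3 that fell (median log2 change 0.40). Igf2, the fetal growth factor, read 371 and 358 at day 2, 381 and 1038 at day 3 and 9423 and 25273 at day 4, with replicate 2 well above replicate 1 at day 4, and its antisense transcript cannot be told apart without strand. Peg10 read 5587 and 5543 at day 2, 7876 and 10582 at day 3 and 39366 and 58064 at day 4 and Peg3 3380.4 and 2699 at day 2, 3140.4 and 5035 at day 3 and 18239 and 19879 at day 4. Asb4 rose by 6.32 and H19 by 2.49 on the log2 scale.

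Many genes of the cytoskeleton and of cell guidance rose. Of 37 actin cytoskeleton and contractile genes 27 were higher and 2 lower (median 0.94), among them the tropomyosin Tpm1 (from 3986 and 4306 at day 2 to 19218 and 20568 at day 4) and the striated muscle actins Acta1 (4.99) and Actc1 (4.35). Keratin and desmosome genes, which belong to epithelia, were higher in 8 of 13 cases and lower in 0 (0 also at an unadjusted p, in edgeR and in DESeq2), with Krt8 at 3.97, Krt19 at 2.96 and the desmoplakin gene Dsp from 1202 and 1351 at day 2 to 9627 and 10298 at day 4. Of 37 guidance receptors and ligands 22 were higher and 2 lower. Nrp1 read 14.7 and 29.3 at day 2, 25.7 and 18.9 at day 3 and 1625 and 2667 at day 4, Nrp2 275 and 255 at day 2, 363 and 463 at day 3 and 4279 and 3932 at day 4 and Plxna4 went from 9.79 and 6.22 at day 2 to 679 and 607 at day 4, and Unc5c (5.96) and Slit2 (2.47) rose too. All 8 tested guanylate-binding protein genes, known from interferon responses, were higher in limma, led by Gbp1 (2.34) and Gbp2 (2.24). In edgeR 8 were higher and in DESeq2 6. With all 10 E14 libraries in the fit Gbp3, Gbp4 and Gbp7 lost their calls. The sequences of the guanylate-binding protein genes are similar, so reads may be shared.

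Many germline and neuronal genes that were read at day 2 fell. Of 47 meiosis and piRNA genes 32 were lower and 2 higher (median -1.68). Piwil1, a piRNA-binding Argonaute, read 248 and 172 at day 2, 55.3 and 23.3 at day 3 and 9.9 and 9.78 at day 4 and the meiotic axis gene Hormad1 296 and 232 at day 2, 123 and 37.9 at day 3 and 28 and 18.5 at day 4. Tex11 (-3.00) and Sohlh2 (-2.76) fell too. Of 29 neuronal genes 18 were lower and 1 higher (median -1.77), such as the neurofilament Nefh (from 672 and 623 at day 2 to 60.2 and 84.8 at day 4), the RNA-binding protein gene Elavl3 (-2.78) and the ubiquitin hydrolase Uchl1 (-2.12). In Piwil1, Hormad1 and Nefh the day 3 libraries lay between those of days 2 and 4.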
